A study of Bos taurus with 53 samples.

Results

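Ovoid and tubular bovine embryos of the same age were compared through the mRNA of their embryonic discs. All discs compared came from oocytes matured in BASAL medium, and they comprised 3 discs from ovoid embryos and 7 discs from tubular embryos. These 10 libraries were selected from the 53 libraries of the series as the embryonic disc libraries labelled BASAL, with the shape taken from the label. Libraries under 10000 exon reads and disc libraries without a read of NNAT, an imprinted gene transcribed in the disc, were left out. Of 12 BASAL discs this removed 2. The tubular disc 5 held 6814 reads, and the ovoid disc 4 held 2500029 reads but 0 NNAT reads. The remaining discs keep their own numbers, so that tubular discs run from 1 to 8 without 5.

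BASAL medium held stearic acid at 28 µM, palmitic acid at 23 µM and oleic acid at 21 µM in 0.45% ethanol, and oocytes stayed in it for 24 h before fertilisation in vitro. On day 7.7 groups of 8 blastocysts were placed in the uterus of a synchronised cow, and on day 14 the conceptuses were recovered by flushing, classed by shape and separated into disc and extraembryonic tissue. Ovoid discs 1 to 3 came from cows 66, 12 and 07, and 2 were male and 1 female. The tubular discs came from cows 813 (3 discs), 12 (2 discs), 07 and 13, and 3 were male and 4 female. Cows 12 and 07 gave discs of both shapes, whereas of these 10 discs cow 66 gave only an ovoid one and cows 813 and 13 only tubular ones. Discs of a cow developed in 1 uterus, and all values therefore measure the spread between embryos rather than between independent pregnancies. In addition, 10 extraembryonic samples of the same embryos and 8 discs matured in HIGH PA medium (palmitic acid at 150 µM, the rest as in BASAL; 4 ovoid and 4 tubular) were used for comparison.

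In cattle the blastocyst does not implant at once. It grows from a sphere through an ovoid and a tubular form into a long filament, mainly by growth of the trophectoderm and the hypoblast beneath it, while the embryonic disc (epiblast with its underlying hypoblast) sits on its surface and moves towards gastrulation. Shape at a given age is widely read as a measure of how far a conceptus has developed. Low oxygen stabilises the HIF transcription factors, which raise the transcripts of glycolytic enzymes, of mitophagy receptors such as BNIP3 and of enzymes that divert pyruvate from the mitochondria.

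Depth of the 10 discs ran from 1341534 to 6167850 exon reads. It overlapped between the shapes (two-sided exact permutation test, p = 0.367), as did the share of uniquely placed reads (exact permutation p = 0.867) and the number of genes with a read (exact permutation p = 0.1). The share of intronic reads was 9.243% to 9.71% in ovoid and 8.14% to 9.236% in tubular discs, with every ovoid disc above every tubular disc (9.45% ± 0.239, SD, n = 3, against 8.65% ± 0.424, n = 7; exact permutation p = 0.0167, the smallest that 3 against 7 allow; 0.0833 after Benjamini-Hochberg adjustment over 5 such measures). This difference moved with shape, and its part in the results below was not tested. PTPRC and HBB, which mark maternal immune cells and blood, had 0 reads in all 10 discs, which allows up to 2.24 CPM (an exon read count scaled to 1e+06 reads of its library) in the shallowest one. The disc markers SOX2, PRDM14 and NODAL were detected in every disc. Trophectoderm transcripts were also present in every disc, with IFNT2 at 522 to 2518 CPM, so that the samples were not of epiblast and hypoblast alone. In such bulk samples fewer cells of a type and less RNA per cell cannot be told apart.

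No gene passed the test between ovoid and tubular discs across all genes. Differences in value included a lower level of ZNF521 in ovoid discs and lower levels of nearly all listed hypoxia-responsive and glycolytic genes. The 11 listed mitochondrially encoded mRNAs had higher values. With sex as a term, 0 of 10439 genes tested were called at an adjusted p under 0.05 in edgeR's quasi-likelihood test, which is 0% of all genes. At an unadjusted p under 0.05 there were 301 genes lower in ovoid discs (2.88% of those tested) and 279 higher (2.67%). DESeq2 called 9 genes, of which 6 were lower in ovoid discs (ZNF521, BNIP3L, BNIP3, AKR1A1, RAPGEF2, HAND1) and 3 higher (LRPAP1, PPIF, CERS4). The ovoid and tubular CPM values did not overlap for 110 genes lower in ovoid (1.05%) and 107 genes higher (1.03%). The median 95% half-interval of a log2 fold change, without adjustment over genes, was 0.49. For a typical gene differences below about that size could not be told from 0, and a call across all genes needs a larger one. Log2 fold changes are given throughout as ovoid minus tubular, with the standard error of the fit.

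ZNF521, a zinc finger regulator of transcription in progenitor cells (chromosome 24, 31675532 to 32049400, UMD3.1), had the lowest p. Its level was 4.94, 5.06 and 4.47 CPM in ovoid discs 1 to 3, and in tubular discs it ran from 15.4 to 22.0 CPM with a median of 16.3. The lowest tubular disc thus stood well above the highest ovoid disc, and the ovoid discs were close to each other. The log2 fold change was -1.88 (SE 0.27, 95% interval -2.46 to -1.29), with an adjusted p of 0.113 in edgeR. Within cow 12 the log2 ratio of the ovoid to the tubular mean was -1.83, and within cow 07 it was -2.24. Because the groups do not overlap, both ratios had to be negative, so they are no separate evidence.

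**Figure D1:**
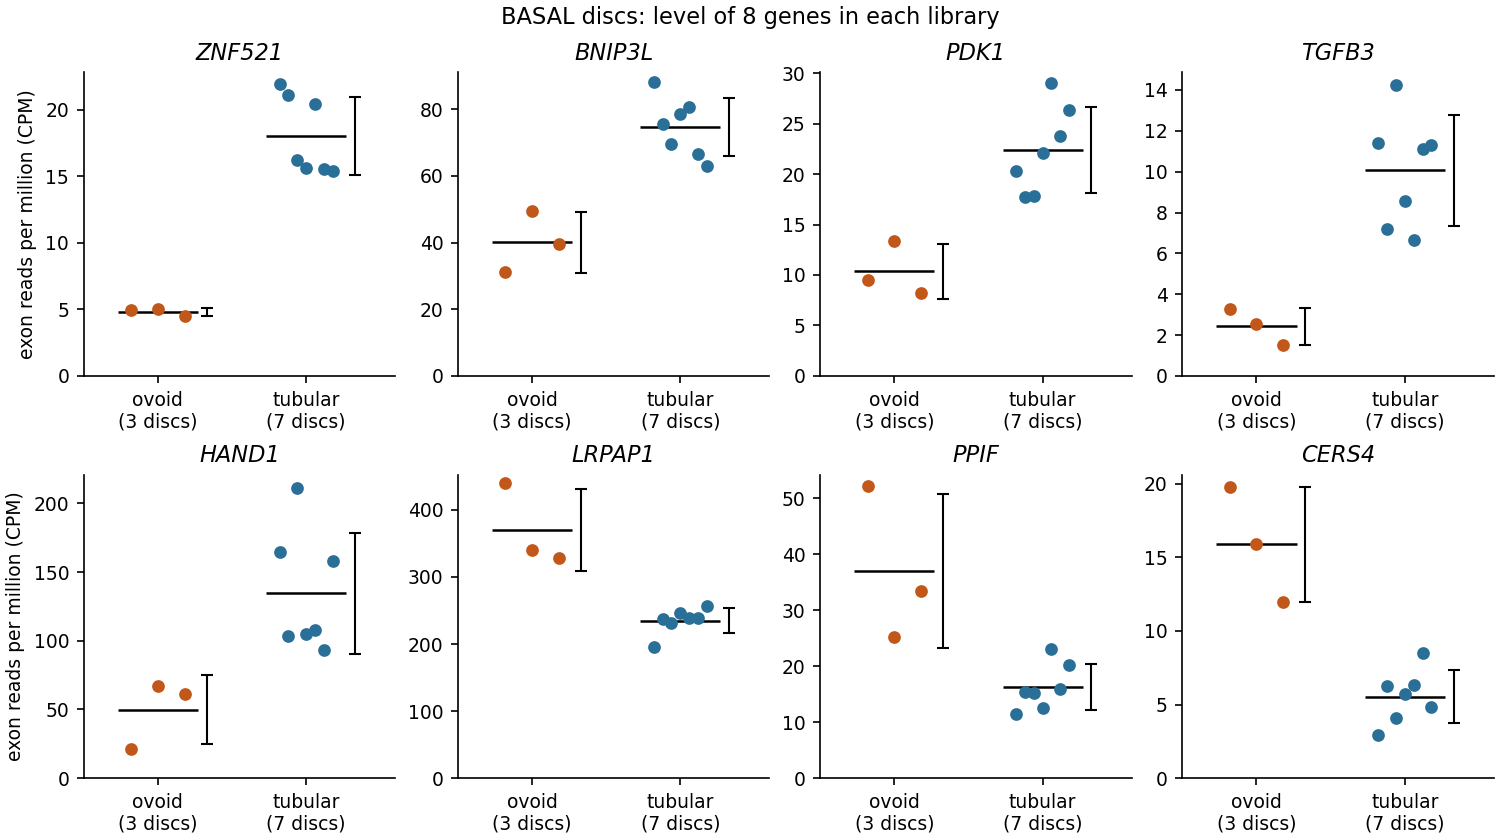
Each point is 1 BASAL disc library, the vertical axis is its level in CPM, horizontal bars are group means and error bars 1 SD (3 ovoid and 7 tubular discs). For all 8 genes the groups do not overlap: ZNF521, BNIP3L, PDK1, TGFB3 and HAND1 are lower in ovoid discs, and LRPAP1, PPIF and CERS4 are higher. All 8 were picked from the genes of lowest p in these same data. Over all genes tested 1.05% were lower and 1.03% higher without overlap.

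Among the other genes of lowest p that were lower in ovoid discs, 2 encode mitophagy receptors of the outer mitochondrial membrane. BNIP3L (chromosome 8, 74924183 to 74947549) stood at 31.3, 49.6 and 39.5 CPM in ovoid discs and at 63.1 to 88.2 CPM, median 75.7, in tubular discs (log2 fold change -0.86, SE 0.167, edgeR adjusted p = 0.544). BNIP3 (chromosome 26, 51353457 to 51357472) stood at 25.5, 25.7 and 38.8 CPM against 35.6 to 90.0 CPM, median 55.8, a log2 fold change of -1.15 (SE 0.242). Its groups overlapped, because tubular disc 3 lay below ovoid disc 3. PDK1, the kinase that switches off pyruvate dehydrogenase, was at 9.46, 13.4 and 8.20 CPM in ovoid discs and at 17.7 to 29 CPM, median 22.1, in tubular discs (log2 fold change -1.08, SE 0.248). TGFB3, a ligand of the TGF-beta family, was at 3.29, 2.53 and 1.49 CPM against 6.65 to 14.2 CPM, median 11.1. Its log2 fold change of -1.85 (SE 0.393) was close in size to that of ZNF521.

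HAND1, a transcription factor of extraembryonic mesoderm and trophoblast (chromosome 7, 67715958 to 67719274), was at 21.4, 67.3 and 61.1 CPM in ovoid discs and at 93.4 to 211 CPM, median 108, in tubular discs. No ovoid disc reached the lowest tubular disc, and the log2 fold change was -1.37 (SE 0.325; adjusted p = 0.819 in edgeR). The remaining genes of the 10 with the lowest p in this direction were the aldehyde reductase AKR1A1 (-0.85, SE 0.18), the Rap1 exchange factor RAPGEF2 (-0.70, SE 0.150), the zinc exporter SLC30A1 (-0.80, SE 0.192) and the ubiquitin ligase PJA2 (-0.57, SE 0.138), all as log2 fold changes. The groups did not overlap for any of these 4 genes, against 1.05% of all genes lower in ovoid. Genes picked for a low p in these same values tend not to overlap, so this is no support.

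The 10 genes of lowest p in the other direction included proteins of several compartments. LRPAP1, the chaperone of LDL receptor family members in the secretory pathway (chromosome 6, 107207882 to 107221544), was at 441, 340 and 329 CPM in ovoid discs and at 195 to 257 CPM, median 238, in tubular discs, a log2 fold change of 0.65 (SE 0.122). PPIF, the mitochondrial cyclophilin that controls the permeability transition, was at 52.2, 25.3 and 33.5 CPM against 11.4 to 23.0 CPM, median 15.3 (log2 fold change 1.06, SE 0.208). CERS4, a ceramide synthase, was at 19.7, 15.9 and 11.9 CPM against 2.96 to 8.53 CPM, median 5.70 (log2 fold change 1.52, SE 0.325). In LRPAP1, PPIF and CERS4 ovoid disc 1 was the highest of all 10 discs. The glutamate transporter SLC1A1 (log2 fold change 0.50, SE 0.125), the nucleolar proteins NOL6 (0.55, SE 0.141) and MYBBP1A (0.44, SE 0.114) and the lysophospholipid acyltransferase LPCAT4 (0.61, SE 0.160) did not overlap between groups either. Over all genes tested 1.03% were higher in ovoid without overlap, and the genes named here were picked for a low p. MICALL2, a protein of cell junctions (0.73, SE 0.187), AMPD2, an AMP deaminase (0.75, SE 0.193), and the mitochondrially encoded COX1 overlapped.

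Genes known to respond to low oxygen had lower values in ovoid discs in nearly every case. Of 18 tested members of the hypoxia list (22 in the table), 17 had a log2 fold change below 0, against 50.8% of all genes tested, and the median was -0.54, against -0.0049 for all genes. This list and the others below were chosen with earlier results of these data known. Setting them beside all genes is a description and not a test. None was called across all genes, 10 were lower in ovoid at an unadjusted p under 0.05, and 5 (BNIP3L, PDK1, P4HA1, ERO1A and EPAS1) did not overlap between groups, where the background was 1.05%. The summed level of the list was 1461, 1688 and 1524 CPM in ovoid discs and 1871 to 2827 CPM, median 2322, in tubular discs. Every ovoid disc was below every tubular disc. The members whose p was lowest after BNIP3L, BNIP3 and PDK1 were LDHA and ERO1A. LDHA, the lactate dehydrogenase subunit that favours lactate, was at 604, 374 and 347 CPM in ovoid discs and at 465 to 1217 CPM, median 863, in tubular discs (log2 fold change -1.01, SE 0.255). ERO1A, an oxidase of the endoplasmic reticulum, was at 41.5, 49.6 and 41.7 CPM against 53.7 to 86.4 CPM, median 67.1 (-0.63, SE 0.181).

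The oxygen-regulated transcription factors belong to the list too. HIF1A had a log2 fold change of -0.09 (SE 0.144) and EPAS1, which encodes HIF-2alpha, -0.38 (SE 0.135), with 97.5, 127 and 99.1 CPM in ovoid discs against 130 to 170 CPM in tubular discs. The classical targets VEGFA (-0.34, SE 0.331), CA9 (-0.16, SE 0.242) and SLC2A1, the main glucose transporter (-0.22, SE 0.155), were each less than 2 SEs from 0. EGLN3, an oxygen-sensing prolyl hydroxylase, was the only member above 0 (0.05, SE 0.266). The histone demethylase KDM3A, a HIF target, was at -0.46 (SE 0.177), the proline hydroxylase P4HA1 at -0.75 (SE 0.291), the MYC antagonist MXI1 at -1.11 (SE 0.434) and NDRG1 at -1.05 (SE 0.447). Without ovoid disc 1 the list kept 16 of 18 members below 0 with a median of -0.36, the smallest median of any alternative. With only the cows that gave both shapes and cow as a block, 16 of 18 were below 0 with a median of -0.40.

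**Figure D2:**
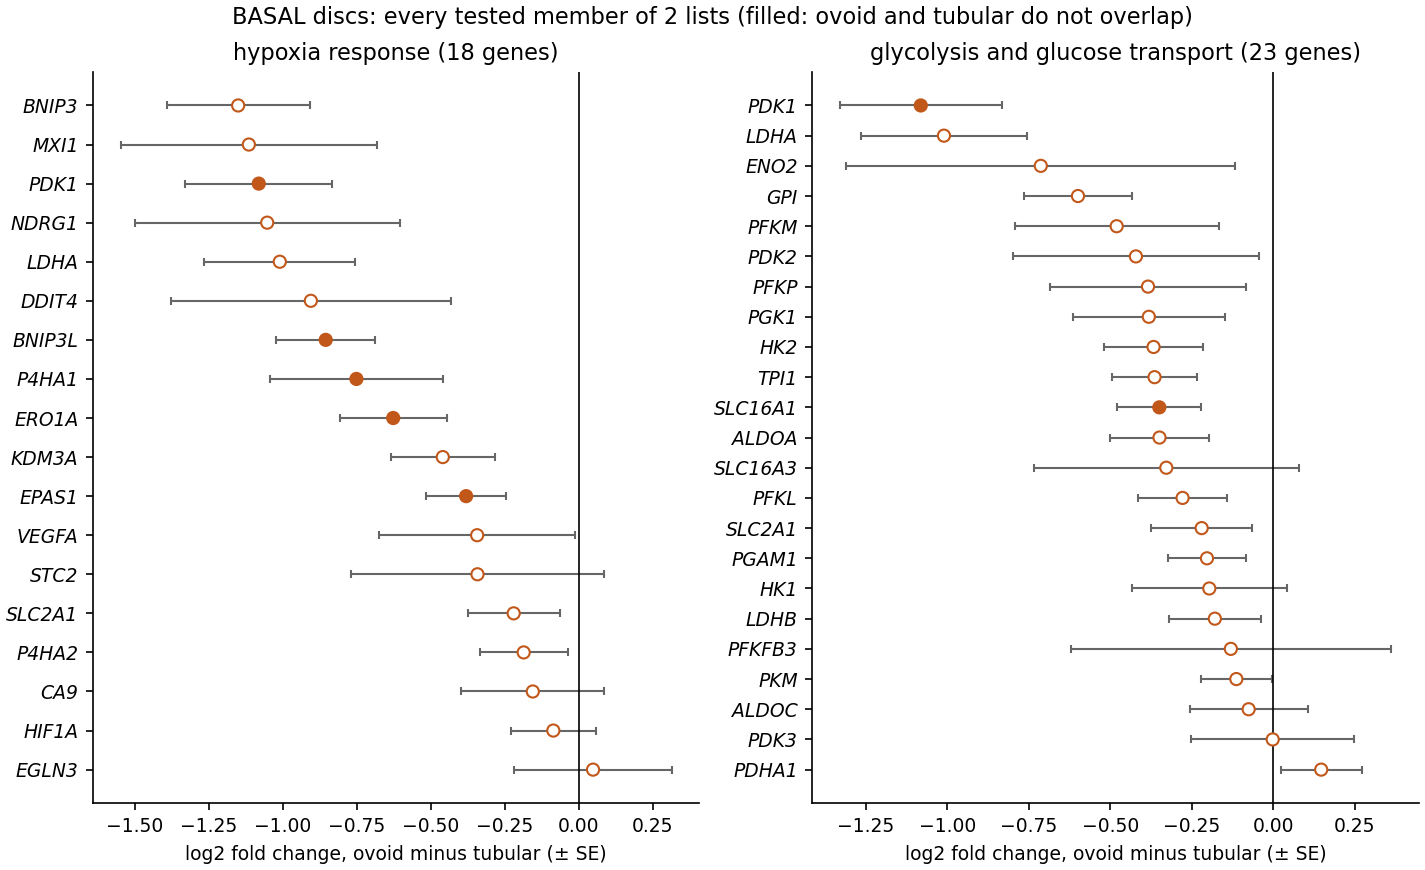
Horizontal axes give the log2 fold change of ovoid minus tubular BASAL discs with 1 SE for every tested member of the hypoxia list (18 genes) and the glycolysis list (23 genes), which share PDK1, LDHA and SLC2A1. Points to the left of 0 are lower in ovoid discs, and filled points are genes whose groups do not overlap: 5 in the hypoxia list and 2 in the glycolysis list.

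Glycolysis and glucose transport genes lay on the same side with smaller differences. Of 23 tested members 22 were below 0, the exception being PDHA1, a subunit of pyruvate dehydrogenase (0.15, SE 0.124), and the median was -0.35. No member was called, 7 had an unadjusted p under 0.05, and PDK1 and the lactate and pyruvate carrier SLC16A1 did not overlap between groups, against 1.05% of all genes. Summed over the list, ovoid discs held 10155, 10085 and 10458 CPM and tubular discs 10737 to 13806 CPM, median 13076, again with no overlap. Tubular disc 3 was nearest to the ovoid discs, and it was also the lowest tubular disc for the hypoxia list. Among enzymes along the pathway, hexokinase HK2 was at -0.37 (SE 0.152), the isomerase GPI at -0.60 (SE 0.167), triosephosphate isomerase TPI1 at -0.36 (SE 0.131), aldolase ALDOA at -0.35 (SE 0.151) and pyruvate kinase PKM at -0.11 (SE 0.108). PDK1, LDHA and SLC2A1 belong to both lists, which are therefore not separate measurements. Without ovoid disc 1, 20 of 23 members were below 0 with a median of -0.29. The smallest median of any alternative was -0.26, without the sex term. With both left-out discs kept in, or with sequencing lane as a term, 19 of 23 were below 0.

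The mitochondrial genome gave the opposite sign. All 11 mitochondrially encoded mRNAs of the list were above 0, against 49.2% of all genes. Their log2 fold changes were 0.44 to 0.75 with a median of 0.64, and 8 were higher in ovoid at an unadjusted p under 0.05. The 11, which do not include COX2 and CYTB, encode subunits of complexes I, IV and V of the respiratory chain. They are transcribed as long shared precursors and are not independent of each other. COX1, a subunit of cytochrome oxidase (mitochondrial genome, 5686 to 7231), was at 11336, 20818 and 20076 CPM in ovoid discs and at 8446 to 14858 CPM, median 11486, in tubular discs (log2 fold change 0.63, SE 0.165). ND4, of complex I, was at 1962, 3962 and 4215 CPM against 1717 to 3101 CPM, median 2280 (0.64, SE 0.208). Ovoid discs 2 and 3 were above every tubular disc in both genes, whereas ovoid disc 1 lay within the tubular range. Mitochondrial reads made up 3.16%, 6.39% and 6.48% of exon reads in ovoid discs and 2.80% to 4.78% in tubular discs (exact permutation p = 0.1 for the share). Without ovoid disc 3 the median of the list was 0.35, and without ovoid disc 1 it was 0.86, with 11 of 11 above 0 in both cases.

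Nuclear genes of mitochondrial function were mixed. Mitochondrial ribosomal proteins were above 0 in 60 of 68 members with a median of 0.15, and MRPL28, MRPL48 and MRPL55 did not overlap between groups, where the background of genes higher in ovoid was 1.03%. MRPL55 was at 87.2, 81.8 and 90.2 CPM in ovoid discs against 56.2 to 79.0 CPM in tubular discs (log2 fold change 0.38, SE 0.139). Without ovoid disc 1, 44 of 68 were above 0 with a median of 0.073, and in the cows that gave both shapes, with cow as a block, 41 of 68 were above 0 with a median of 0.034. Nuclear subunits of the respiratory chain were above 0 in 32 of 51 members with a median of 0.050. Cytosolic ribosomal proteins were above 0 in 35 of 40 members, but their median was only 0.086. It was 0.20 without ovoid disc 2, 0.033 without tubular disc 8, and 0.016 with 22 of 40 above 0 in the cows that gave both shapes with cow as a block. Ribosomal protein genes have many near-identical copies, between which the counting could have split reads.

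**Figure D3:**
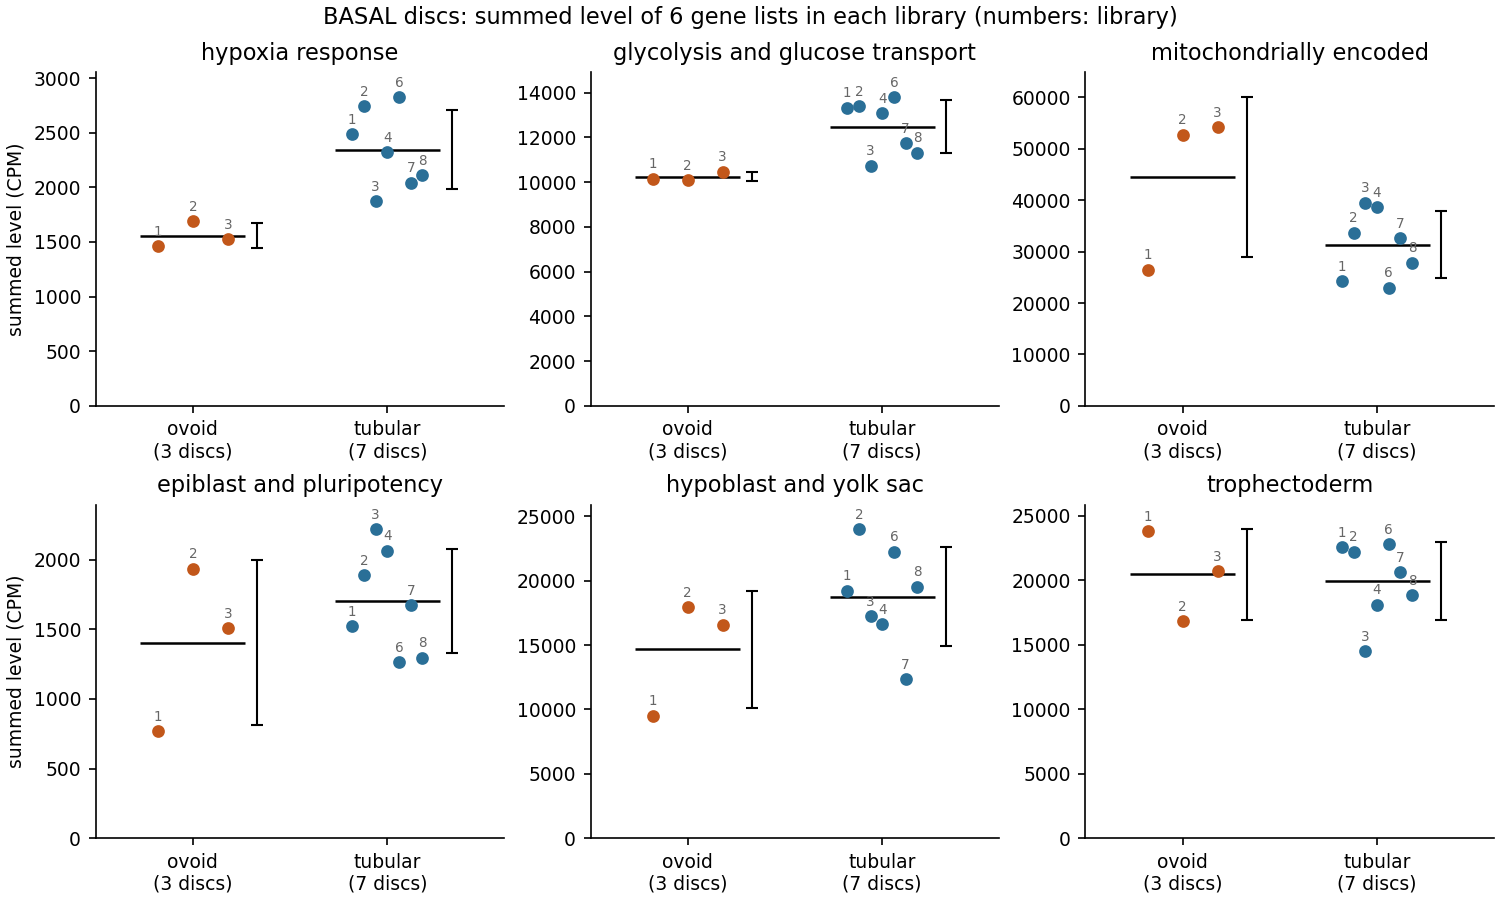
Each point is 1 BASAL disc, numbered as in the text, and the vertical axis is the summed level of all members of a list in CPM; bars are means and error bars 1 SD (3 ovoid, 7 tubular). The hypoxia and glycolysis sums do not overlap between shapes, the mitochondrially encoded sum is high in ovoid discs 2 and 3 alone, and ovoid disc 1 is lowest for epiblast and hypoblast genes and highest for trophectoderm genes.

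The 3 ovoid discs differed among themselves in lineage transcripts, and ovoid disc 1 stood apart from all the others. Its epiblast genes summed to 768 CPM, against 1936 and 1506 CPM in ovoid discs 2 and 3 and 1262 to 2219 CPM in tubular discs. SOX2, a core pluripotency factor, was at 4.11, 22.4 and 17.9 CPM in ovoid discs and at 9.71 to 33 CPM in tubular discs. NODAL, the ligand that patterns the disc, was at 4.11, 47 and 33.5 CPM against 8.90 to 68.4 CPM, and EOMES, a factor of the early streak, at 4.94, 32.6 and 32.1 CPM against 6.30 to 50.3 CPM. In SOX2, NODAL and EOMES ovoid disc 1 was the lowest of all 10 discs, while ovoid discs 2 and 3 lay within the tubular range. Its hypoblast sum was 9500 CPM, against 17942 and 16579 CPM in ovoid discs 2 and 3 and 12347 to 24005 CPM in tubular discs. The hypoblast factor GATA4 was at 25.9, 119 and 106 CPM in ovoid discs and at 47.4 to 160 CPM in tubular discs. APOB, an apolipoprotein made by the hypoblast and yolk sac, had 0 reads in ovoid disc 1, which allows up to 1.23 CPM, and was at 40.2 and 2.98 CPM in ovoid discs 2 and 3 and at 7.60 to 94.8 CPM in tubular discs. The trophectoderm sum was 23814 CPM in ovoid disc 1, 16809 and 20708 CPM in ovoid discs 2 and 3 and 14479 to 22785 CPM in tubular discs. The disc left out for lack of NNAT came from the same cow as ovoid disc 1.

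Several groups of developmental genes lay below 0 only while ovoid disc 1 was included, or lost most of their difference without it. Hypoblast and yolk sac genes were below 0 in 27 of 31 members with a median of -0.32, of which APOM (-0.86, SE 0.311) and the retinol carrier RBP4 (-0.72, SE 0.331) had the lowest p. Without ovoid disc 1, 14 of 31 were below 0 with a median of 0.024. Nodal, activin and BMP genes were below 0 in 22 of 25 members (median -0.23), led by the BMP antagonist NOG (-1.83, SE 0.788) and the BMP target ID2 (-0.38, SE 0.159). Without that disc 13 of 25 were below 0 (median -0.026). WNT genes went from 20 of 24 below 0 (median -0.15) to 9 of 24 (median 0.060). CTNNB1, or beta-catenin, at 314, 340 and 372 CPM in ovoid and 375 to 504 CPM in tubular discs (-0.30, SE 0.124), was their only member whose groups did not overlap. Over all genes tested 1.05% were lower in ovoid without overlap. Collagens went from 14 of 17 below 0 (median -0.34) to 6 of 17 (median 0.092), although COL6A3 (-1.93, SE 0.775), the member of lowest p, was at 0, 4.34 and 2.98 CPM in ovoid discs against 2.97 to 17.4 CPM in tubular discs. Imprinted genes, which include the NNAT used to select discs, went from 8 of 10 below 0 (median -0.37) to 6 of 10 (median -0.088). The imprinted, retrotransposon-derived PEG10 was at 3.70, 31.8 and 8.94 CPM in ovoid discs and at 13.7 to 62.8 CPM in tubular discs (-1.50, SE 0.538).

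**Figure D4:**
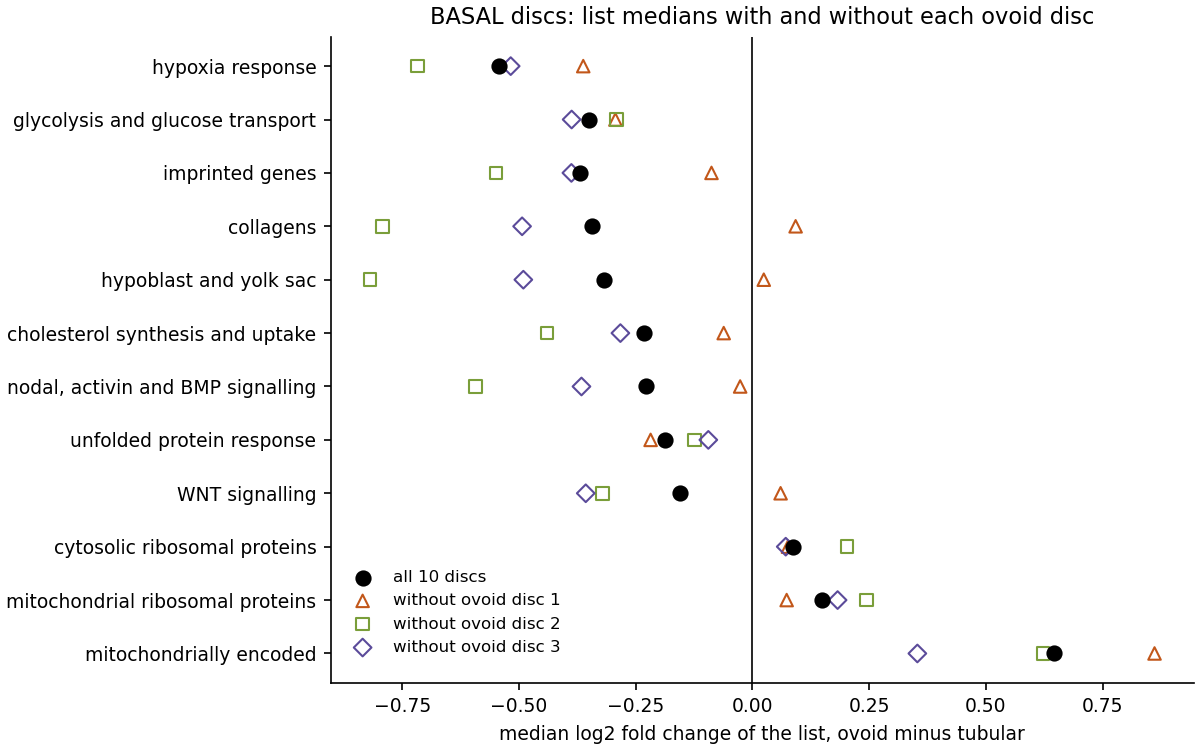
The horizontal axis is the median log2 fold change (ovoid minus tubular BASAL discs) of each of 12 gene lists, with all 10 discs (filled circles) and with 1 ovoid disc left out (open symbols). Hypoxia, glycolysis, unfolded protein response and imprinted genes stay below 0, and mitochondrially encoded and ribosomal genes above 0, in every case, while collagen, hypoblast and WNT medians cross 0 and nodal and cholesterol medians come close to it without ovoid disc 1.

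Epiblast genes (12 of 18 below 0, median -0.20, again with NNAT among them), primitive streak and mesoderm genes (5 of 10, median -0.055), neural and surface ectoderm genes (8 of 12, median -0.099) and trophectoderm genes (15 of 24, median -0.040) had 0 members called. HAND1, which is in the streak and trophectoderm lists, and PTGS2, a trophectoderm gene, were the only members whose groups did not overlap. Over all genes tested 1.05% were lower in ovoid without overlap. PTGS2, the inducible prostaglandin synthase, was at 953, 746 and 572 CPM in ovoid discs and at 1127 to 3674 CPM, median 1340, in tubular discs (log2 fold change -1.23, SE 0.385). Cell cycle and replication genes were near 0 (28 of 46 above, median 0.057). Unfolded protein response genes were below 0 in 21 of 26 members with a median of -0.19, which was -0.095 (15 of 26) without ovoid disc 3, -0.12 without ovoid disc 2, -0.11 without tubular disc 6 and -0.045 with both left-out discs kept in, and HERPUD1 was at -0.34 (SE 0.172). Cholesterol synthesis genes were below 0 in 25 of 30 members (median -0.23), but above 0 in the median (0.056, 11 of 30 below) with recipient cow as a block. Lysosomal genes had a median of -0.0038, with the protease CTSH (0.46, SE 0.148) and the lysosomal regulator TFEB (0.76, SE 0.249) lowest in p. In the fatty acid oxidation list 17 of 32 members were below 0. The carnitine acetyltransferase CRAT (-0.41, SE 0.146) was the only 1 of the 32 whose groups did not overlap, against 1.05% of all genes.

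Within the 2 cows that gave both shapes the same groups could be set side by side without a difference between uteri, though with 1 ovoid disc each and 2 and 1 tubular discs. The ovoid discs here are discs 2 (cow 12) and 3 (cow 07), and ovoid disc 1 of cow 66 has no part. Hypoxia genes were lower in the ovoid disc for 15 of 18 members in cow 12 (median log2 ratio -0.16) and for 17 of 18 in cow 07 (median -0.81). Glycolysis genes were lower for 20 of 23 (median -0.41) and 17 of 23 (median -0.34). These discs are part of the main comparison, where the sums of both lists already did not overlap. The hypoxia and glycolysis counts within cows are therefore no separate evidence. All 11 mitochondrially encoded mRNAs of the list were higher in the ovoid disc in both cows (medians 0.84 and 0.78). These are the 2 ovoid discs already seen to be high, with 6.39% and 6.48% mitochondrial reads, so this is no separate evidence. Trophectoderm genes were also lower in the ovoid disc in both cows, for 19 of 24 members in cow 12 (median -0.28) and 18 of 24 in cow 07 (median -0.32), and their part in the other differences was not tested. Mitochondrial ribosomal protein genes were split in cow 12, with 34 lower and 34 higher, and higher for 44 of 68 in cow 07. Hypoblast genes were split, lower for 12 of 31 members in cow 12 and for 26 of 31 in cow 07. Over all genes tested the median ratio was 0.0083 in cow 12 and -0.0035 in cow 07.

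The extraembryonic samples of the same 10 embryos gave a second reading of each embryo. Again 0 genes (0%) of 10753 were called by edgeR. At an unadjusted p under 0.05 there were 747, of which 451 were lower in ovoid and 296 higher. DESeq2 called 31, of which 23 were lower and 8 higher. Groups did not overlap for 48 genes lower in ovoid (0.446%) and 513 higher (4.77%). This overlap was read on plain CPM, without the scaling factors of the fit, and its direction was opposite to that of the tests. ZNF521 was at 1.29, 11.8 and 6.35 CPM in the extraembryonic samples of ovoid embryos 1 to 3 and at 15.9 to 44.2 CPM, median 23.6, in those of tubular embryos, with no overlap (log2 fold change -2.03, SE 0.507; adjusted p = 0.686 in edgeR). LDHA was at 529, 536 and 432 CPM against 306 to 1164 CPM, median 951 (-0.92, SE 0.241), where the lowest tubular value belonged to embryo 3. Hypoxia genes were below 0 in 14 of 17 members (median -0.53), glycolysis genes in 16 of 22 (median -0.066) and unfolded protein response genes in 23 of 26 (median -0.25). Leaving out 1 sample at a time moved the glycolysis median between -0.15 and -0.018, and the unfolded protein response median between -0.42 (without ovoid embryo 2) and -0.16 (without ovoid embryo 3). Mitochondrially encoded mRNAs were split (6 of 11 below 0, median -0.043), and this rested on single samples, since leaving out 1 sample at a time gave from 0 to 11 members below 0. The median was -1.22 without the sample of ovoid embryo 3, with 11.1% mitochondrial reads, 0.34 without that of tubular embryo 3, with 20.9%, 0.29 without that of ovoid embryo 1 and 0.68 without that of ovoid embryo 2. The other 8 samples held 2.93% to 5.67% mitochondrial reads. Of the 10 library names, only those of ovoid embryo 3 and tubular embryo 3 carry the mark EX_2. The labels do not say what it means, and its part in these values was not tested. With the mark as a term, added after seeing the data, 0 genes were called and 1395 had an unadjusted p under 0.05 in edgeR. Without the sample of tubular embryo 3 edgeR called 6 genes, all lower in ovoid (DRAM2, GMFB, LDHA, MICU3, TGM2 and TRAM1, named after their values were seen).

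HAND1 did not share the pattern of ZNF521 in the extraembryonic samples. It was at 1.61, 2.65 and 11.6 CPM in those of ovoid embryos and at 0.0861 to 4.90 CPM in those of tubular embryos, levels far below those of the discs (log2 fold change 1.32, SE 0.948). The difference of its shape effect between tissues, tested within embryos, was 2.73 on the log2 scale (SE 0.817), with an adjusted p of 1 in edgeR. That of ZNF521 was -0.25 (SE 0.506, 95% interval -1.35 to 0.85). Over 11384 genes 0 had a shape effect called different between disc and extraembryonic sample, and 438 had an unadjusted p under 0.05. DESeq2 called 0 as well.

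HIGH PA discs are other embryos with the same contrast, in which 0 genes (0%) of 9510 were called, 201 had an unadjusted p under 0.05, and DESeq2 called 0. Groups did not overlap for 65 genes lower in ovoid (0.683%) and 124 higher (1.30%). The only female disc there is ovoid disc 3, of 119116 reads, so that with a sex term the fold changes rest on 3 ovoid against 4 tubular discs, all male. Hypoxia genes were below 0 in 14 of 17 members (median -0.35) and glycolysis genes in 17 of 21 (median -0.30). Without tubular disc 1 these were 12 of 18 (median -0.21) and 15 of 22 (median -0.091). LDHA was at 370, 429, 227 and 384 CPM in ovoid discs 1 to 4 and at 1261, 461, 613 and 451 CPM in tubular discs 1 to 4, without overlap (log2 fold change -0.85, SE 0.327). BNIP3 was at 12.9, 15, 0 and 11 CPM against 175, 22.5, 15.2 and 20.6 CPM (-2.11, SE 0.893), where the 0 allows up to 25.2 CPM and tubular disc 1 was far above the rest. ZNF521 overlapped between shapes in HIGH PA discs (-0.59, SE 0.733), and the difference of its shape effect between media was 1.21 (SE 0.760, 95% interval -0.38 to 2.80). HAND1 had the opposite sign to BASAL discs there, with a log2 fold change of 0.30.

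Mitochondrially encoded mRNAs pointed the other way in HIGH PA discs, where 11 of 11 were below 0 with a median of -0.34. Without ovoid disc 4 the median was -0.15, without tubular disc 2 it was -0.18 and without tubular disc 4 -0.16, with 10 or 11 members below 0. ND4 was at 1964, 2189, 1536 and 1726 CPM in ovoid and at 2592, 3686, 1146 and 4057 CPM in tubular HIGH PA discs (log2 fold change -0.60, SE 0.366). Its shape effect differed between HIGH PA and BASAL by -1.31 (SE 0.427, adjusted p = 1 in edgeR). Of the 11 genes 6 had an unadjusted p under 0.05 for that difference, and 0 were called. Cytosolic ribosomal proteins also pointed the other way in HIGH PA discs, with 33 of 38 below 0 (median -0.17). For them 6 of 40 genes had an unadjusted p under 0.05 for the difference of the shape effect, and 0 were called. Mitochondrial ribosomal proteins were split in HIGH PA discs, with 35 of 68 below 0 (median -0.0043). Across 10897 genes 0 were called for a difference of the shape effect between media by edgeR or by DESeq2, and 224 had an unadjusted p under 0.05 in edgeR. Hypoblast genes (23 of 26 below 0, median -0.53) and collagens (12 of 13, median -0.41) lay below 0 in HIGH PA discs too. Nodal, activin and BMP genes were below 0 there in 16 of 23 members, WNT genes in 13 of 23 and imprinted genes in 7 of 10. Without tubular disc 1 the WNT and imprinted medians were above 0 (0.15 and 0.12). The part of ovoid disc 1 in the BASAL differences was not tested by this. The collagen median there was -0.22 without tubular disc 1, with 10 of 15 below 0. Across genes, which are not independent replicates, the rank correlation of the log2 fold changes in BASAL discs was 0.22 with HIGH PA discs (9485 genes) and 0.35 with the extraembryonic samples of the same embryos (9919 genes). The second pair shares the embryos. The first shares no library but shares recipient cows: HIGH PA ovoid discs came from cows 72 and 07 and HIGH PA tubular discs from cows 813, 13 and 07, so that cows 813 and 13 gave only tubular discs in both media. Cow and shape cannot be told apart in that correlation.

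**Figure D5:**
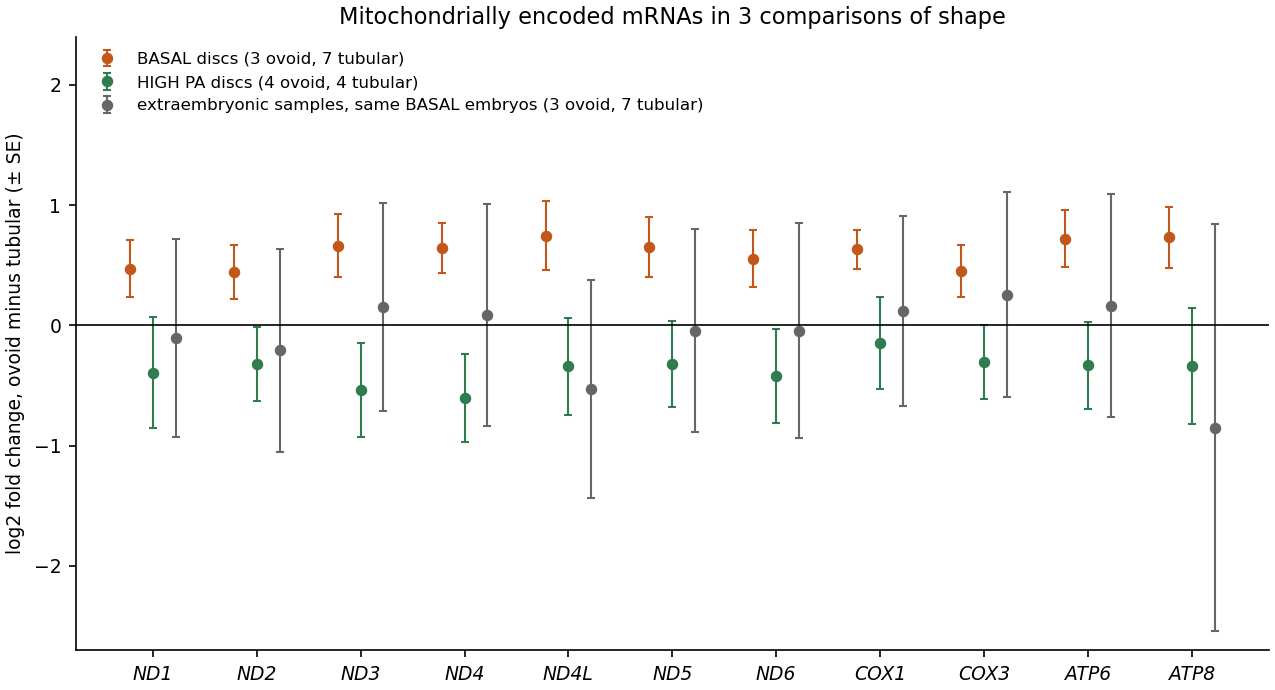
Points are log2 fold changes (ovoid minus tubular) with 1 SE for the 11 mitochondrially encoded mRNAs of the list in BASAL discs (3 against 7), HIGH PA discs (4 against 4, of which the only female disc carries no weight in the fit) and extraembryonic samples of the BASAL embryos (3 against 7). All BASAL disc values are above 0, all HIGH PA disc values are below 0, and the extraembryonic values scatter around 0 with wide errors.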

How the data were processed

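The authors deposited 1 table with, for each library, whole-number counts of exon reads, of uniquely placed exon reads and of intron reads per gene, unscaled. Per the labels' protocols, TruSeq stranded mRNA libraries were sequenced as paired reads of 50 bases; the submitters' processing notes name the build UMD3.1 and DESeq2 1.10.1. For read alignment, counting and strand assignment, tools and settings were not given in the sources used here. Gene coordinates are printed as deposited. CPM is the exon count scaled to 1e+06 exon reads.

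Exon counts were tested in edgeR 4.0.16 under R 4.3.3 (TMM factors, its default low-count filter, quasi-likelihood F test, sex and shape as terms), with Benjamini-Hochberg adjustment over all genes tested and calls at 0.05. Standard errors were derived from each gene's fold change and its F value (fold change divided by the root of F, both on the log2 scale of the fit). Differences between media used a medium by shape term, and those between tissues embryo as a block. The test was tried on simulated counts drawn without effects of cow or sex. That trial does not measure how the test does on these discs. No pair of discs of a group held identical values (3 and 21 pairs, chi-square per degree of freedom 4.05 or more). P-values measure the spread between embryos. Intervals and limits at 0 (3 reads) cover counting error or the error of the fit alone. Alternatives included DESeq2 1.42.0, other scalings, filters and terms, and leaving out each library. The members and the 42 gene lists were chosen with earlier results of these data known. Named genes were the 10 of lowest p in each direction, the 2 of lowest p in each list and a set of lineage and metabolic genes, of which the text names a part; further list members were named after their values were seen, to describe their list. POU5F1, NANOG, CDX2 and GATA6 are not analysed here.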

Additional observations from a re-analysis of the deposited data

Results flagged for a closer look

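In 4 of 80 groups of samples checked, 1 sample lay far from the others of its group by Dixon's test, where chance alone gives about 1 in 20. Among tubular BASAL discs LRPAP1 was lowest in disc 1 at 195 CPM (next 232), AMPD2 was highest in disc 6 at 60.3 CPM (next 40.3) and NOG was highest in disc 1 at 9.71 CPM (next 4.79). Among tubular HIGH PA discs BNIP3 was highest in disc 1 at 175 CPM (next 22.5). Of 60 named genes tested, 0 had a shape effect that differed between media or tissues at an adjusted p under 0.05 in edgeR.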

How the results depend on the processing

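Of 23 alternatives, 20 left the count of genes called in BASAL discs at 0. DESeq2 called 9 (3 higher, 6 lower in ovoid), and keeping both left-out discs called 1, ZNF521 (adjusted p = 0.0205 in edgeR). Leaving out 1 disc at a time gave 0 to 1, the call being TGM2 without tubular disc 3 (adjusted p = 0.0279); the cause was not tested. The adjusted p of ZNF521 ran from 0.000468 to 1.0 over the alternatives. In the extraembryonic samples DESeq2 called 31 and leaving out 1 sample gave 0 to 6. HIGH PA discs and both tests of a difference of the shape effect gave 0 throughout. None of the genes recomputed under the alternatives (mainly those of lowest p, not the lineage genes) reversed, but genes chosen for a low p tend to keep their sign, so this is no support. No paired analysis was possible because replicate numbers link no ovoid to a tubular embryo, but discs could be matched by cow. With recipient cow as a block, 367 genes had an unadjusted p under 0.05, and with sequencing lane as a term 404, the latter added after seeing the data, like the counts of list members under each setting. Depth limits HIGH PA ovoid disc 3 (119116 reads).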

Other observations

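An unnamed gene (ENSBTAG00000022759, chromosome 29, 40130396 to 40148837, UMD3.1), singled out after its values were seen, was at 2220, 1250 and 733 CPM in ovoid BASAL discs and at 2412 to 8324 CPM, median 5126, in tubular ones, without overlap. Its log2 fold change was -1.91 (SE 0.418; adjusted p = 0.571 in edgeR). In the extraembryonic samples of the same embryos it was -1.51, again without overlap.

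Primordial germ cell genes summed to 1716, 853 and 1211 CPM in ovoid and 599.8 to 1046 CPM in tubular discs, although 6 of 8 tested members were below 0. The integrin subunit gene ITGAV was at -0.52 (SE 0.200). It was the only 1 of 18 tested integrin and laminin genes whose groups did not overlap, against 1.05% of all genes lower in ovoid.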
